A study of Mus musculus with 47 samples.

Results

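The activated phagocyte genes are 10 genes whose products are abundant in microglia and macrophages that engulf and digest material: Spp1, Lgals3, Gpnmb, Axl, Cd14, Cd68, Cd63, Ctsb, Ctsd and Ctss. They were chosen by symbol, with earlier results of these data known, and all 10 had a row among the 14221 genes of the count table. Bulk RNA of the hypothalamus, which was taken as a tissue punch per the study's methods, was sequenced from 47 male mice, 1 library per mouse. All mice were Lep ob/ob, which lack functional leptin and are obese and prone to diabetes, and were 11 weeks old per the labels. Each mouse received 1 intracerebroventricular (icv) injection of 3 µg fibroblast growth factor 1 (FGF1) or of vehicle. Tissue was taken on Day 1 (10 FGF1 and 4 vehicle), Day 5 (9 FGF1 and 2 vehicle groups of 7) or Day 42 (5 and 5) after it. The vehicle mice were pair-fed to the FGF1 mice. Those of Days 1 and 42 and 1 vehicle group of Day 5 were labelled non-diabetic and the other vehicle group of Day 5 diabetic, while the study describes its mice as diabetic and how these labels were given is not stated in the sources used here. Per the study's methods, mice that did not stay above a blood glucose limit did not count as diabetic and were left out. The study's methods list a single vehicle group on Day 5, of the size of either group in the labels, and do not say which of them it was. No mouse was left uninjected, so every vehicle value includes the injection itself.

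Phagocytes bind particles and dying cells at surface receptors, enclose them in phagosomes and fuse these with lysosomes, where cathepsins digest the content. In the brain this is chiefly the work of microglia, joined by macrophages of the meninges and vessels and, after injury, by monocytes from blood. Activated microglia are known to raise secreted and lysosomal proteins such as osteopontin (Spp1), galectin-3 (Lgals3), Gpnmb and Cd68. None of the 10 genes is expressed by phagocytes alone: Ctsb, Ctsd and Cd63 belong to the lysosomes of nearly every cell, Axl is found in astrocytes and vessels, and neurons and fibroblasts can make Spp1. In whole tissue, more cells of a type and more RNA per cell cannot be told apart.

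By position in GRCm38 (GENCODE annotation), Spp1 lies at chr5:104435118-104441050 on the plus strand, Lgals3 at chr14:47367751-47386160 (plus) and Gpnmb at chr6:49036546-49070929 (plus). Axl lies at chr7:25757273-25788705 (minus), Cd68 at chr11:69664213-69666153 (minus) and Cd63 at chr10:128900989-128912822 (plus). The cathepsins lie at chr14:63122462-63145923 (Ctsb, plus), chr7:142375911-142388038 (Ctsd, minus) and chr3:95526786-95556403 (Ctss, plus). Values are read counts summed over a gene's exons, so they do not tell transcripts of a gene apart. Exons of Ctsb share 774 bases with Fdft1 on the other strand, those of Ctsd 808 bases with Gm49369 on the same strand, and those of Spp1 309 bases with Gm42793 on the same strand. Cd63 has an annotated pseudogene, Cd63-ps. Whether the counting used strand, and how it treated shared reads, is not given in the sources used here, so the counts of these 4 genes are less certain.

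The sequences before the start sites of 3 members are shown because these genes rose on Day 1 and their windows hold one of the motifs searched. RefSeq (GRCm38.p6) gave windows for 8 of the 10 members. Each is the 250 bases before an annotated start, 5′ to 3′ on the gene's strand, and capitals mark the motif matches. The windows are chr5:104434861-104435110 (Spp1), chr10:128909095-128909344 (Cd63) and chr11:69666171-69666420 (Cd68).
Spp1: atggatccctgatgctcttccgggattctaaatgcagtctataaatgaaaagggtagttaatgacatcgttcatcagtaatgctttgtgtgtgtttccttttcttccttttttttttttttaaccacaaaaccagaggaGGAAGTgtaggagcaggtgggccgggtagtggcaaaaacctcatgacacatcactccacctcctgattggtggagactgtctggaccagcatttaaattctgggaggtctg
Cd63: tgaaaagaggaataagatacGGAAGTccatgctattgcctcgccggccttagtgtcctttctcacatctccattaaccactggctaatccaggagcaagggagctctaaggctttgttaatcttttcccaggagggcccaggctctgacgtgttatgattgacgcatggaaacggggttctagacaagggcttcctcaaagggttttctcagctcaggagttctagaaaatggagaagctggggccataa
Cd68: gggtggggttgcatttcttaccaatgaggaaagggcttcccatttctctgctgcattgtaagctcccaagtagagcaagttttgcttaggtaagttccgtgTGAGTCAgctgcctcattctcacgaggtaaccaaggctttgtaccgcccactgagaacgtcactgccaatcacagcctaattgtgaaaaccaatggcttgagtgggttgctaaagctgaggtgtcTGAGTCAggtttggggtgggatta

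The 4 motifs searched, on both strands, were GGAAGT (letters bound by the ETS family, to which the macrophage factor Spi1 belongs), TGANTCA (bound by Fos and Jun dimers), CACGTG (bound by lysosomal regulators of the Tfeb and Mitf family, among others) and TTCCNGGAA (bound by STAT proteins). GGAAGT stood 111 bases before the start of Spp1 shown here and 230 bases before that of Cd63, and 19.7% of 32851 RefSeq promoter windows hold it. A second annotated start of Spp1 (window chr5:104435942-104436191) had no match to any of the 4 motifs. Axl, Ctss, Gpnmb and Lgals3 also rose on Day 1, and their windows had no match to any of the motifs either. Cd68 had TGANTCA at 149 and at 24 bases, against 6.75% of all windows with a match. Ctsd, which did not pass the test on Day 1, had CACGTG at 245 and at 98 bases, against 6.02%. TTCCNGGAA, found in 0.913% of all windows, was in none of the members' windows. Such a match describes letters and not binding.

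Depth differed between the days and between mice. The FGF1 libraries of Day 1 held 1.24 to 47.1 M counts (M stands for 1000000), and 1 of them (replicate 1) was far shallower than the others, with 539 genes at 0. Vehicle libraries of Day 1 held 37.3 to 42.9 M counts, the Day 5 libraries 7.58 to 30.0 M and the Day 42 libraries 19.4 to 43.9 M. Each day was also 1 preparation in the deposited sample table, so day and preparation cannot be told apart, while FGF1 and vehicle were compared within 1 preparation. The study's methods name an Illumina HiSeq and a NovaSeq system and do not say which libraries were run on which. Levels are given as TMM-normalized CPM, the counts of a gene scaled to a library of 1000000 counts. The libraries carried hypothalamic neuron markers (10 of 10 in the table, summed level 333 to 1608 CPM). A gene is called a differentially expressed gene (DEG) where edgeR's quasi-likelihood test, fitted on all 47 libraries, gave a Benjamini-Hochberg adjusted p under 0.05 over all 14221 genes and an absolute log2 fold change (log2 FC) above 0.5.

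On Day 5, 3 vehicle libraries stood apart in members and are named before the results that rest on them. Non-diabetic vehicle replicate 2 had 147 CPM of Ctss, against 55.4 to 59.7 CPM in the other 6. It was also high in interferon and antigen presentation genes, among them Gbp2 (87.0 CPM, others 3.74 to 6.84) and Cd74 (57.4 CPM, others 2.07 to 6.32), and its homeostatic microglia markers summed to 557 CPM (others 336 to 377). Non-diabetic vehicle replicate 1 and diabetic vehicle replicate 1 had 84.6 and 82.5 CPM of Spp1, against at most 24.2 and 32.6 CPM in the other mice of their groups. Both also had more Slc17a7, a marker of excitatory neurons outside most of the hypothalamus (64.4 and 73.8 CPM, others 9.34 to 27.0). Gbp2, Cd74 and Slc17a7 were picked after their values were seen. The part of these differences in the members' values was tested only by leaving the libraries out.

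On Day 1 the activated phagocyte genes were higher after FGF1: 8 of the 10 rose and none fell, while 19.5% of all genes tested were DEGs and 11.5% were DEGs in the upward direction. Osteopontin rose most (36.1-fold), then galectin-3 (12.0-fold), Cd14, Cd63 and Cd68 (2.53- to 3.79-fold). Gpnmb, Axl and Ctss rose 1.46- to 1.93-fold. Ctsb and Ctsd were 1.21-fold higher and did not pass. The median log2 FC of the 10 genes was 1.14, beside 0.01 over all genes. In 6 genes every FGF1 mouse lay above every vehicle mouse, as did 7.56% of all genes.

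**Figure D1:**
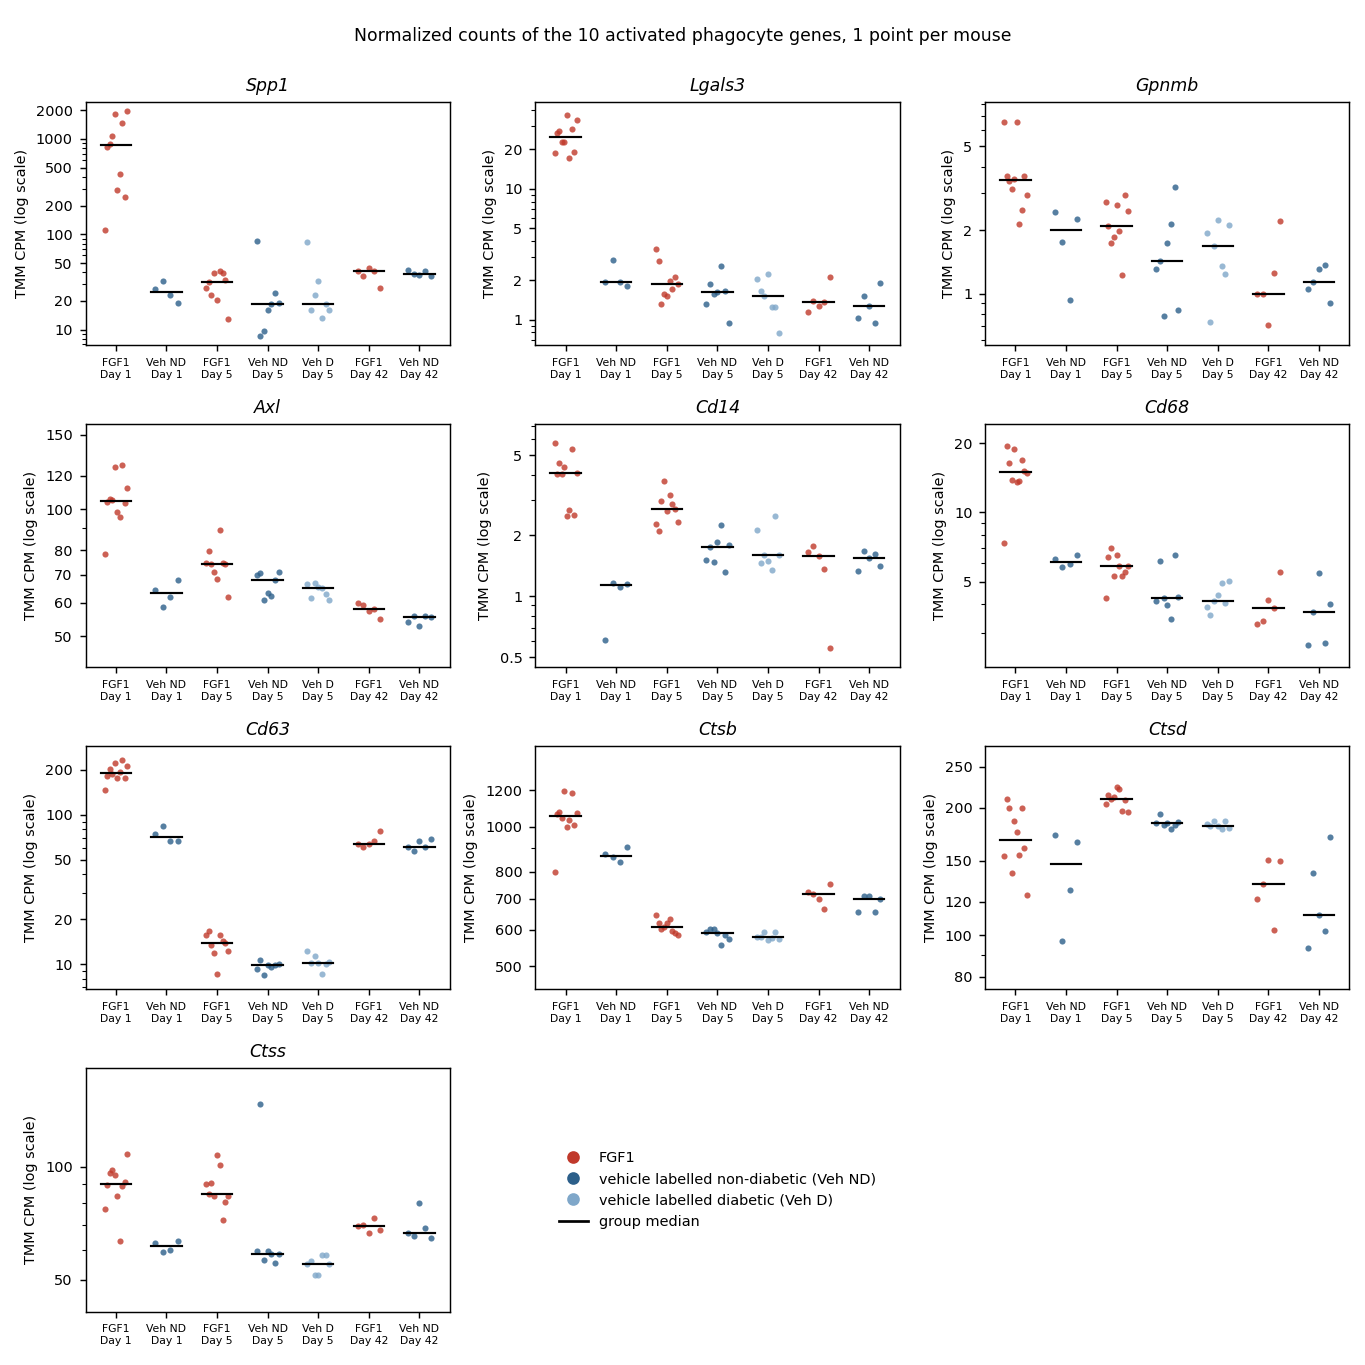
Levels of the 10 genes in each of the 47 mice, as TMM-normalized CPM on log axes, in the 7 groups (red FGF1, dark blue vehicle labelled non-diabetic, light blue vehicle labelled diabetic, black lines group medians). Spp1 has the largest Day 1 fold change, with FGF1 mice at 112 to 1963 CPM and vehicle mice at 19.1 to 32.8 CPM, while on Day 42 the groups overlap for all 10 genes.

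Spp1 encodes osteopontin, a secreted phosphoprotein that binds integrins and CD44. It measured 26.8, 32.8, 23.0 and 19.1 CPM in the 4 vehicle mice of Day 1. In the 10 FGF1 mice it ran from 112 through a median of 856 to 1963 CPM. Every FGF1 mouse lay above the vehicle range, and the FGF1 mice differed among themselves more than for any other member on that day (coefficient of variation 73.0%). The log2 FC was 5.18 ± 0.63 (SE, 95% interval 3.95 to 6.40, edgeR adjusted p = 3.29e-09). The mouse with the lowest value, 112 CPM, was the shallow library, in which this rests on 137 counts. Galectin-3, a sugar-binding protein that gathers at damaged lysosomes and is also secreted, stood at 1.95, 2.88, 1.93 and 1.80 CPM in the vehicle mice. After FGF1 it ran from 17.1 through 24.9 to 37.0 CPM. The spread was smaller than that of Spp1, and the gap to the vehicle mice was wide in every FGF1 mouse. Its log2 FC came to 3.59 ± 0.22 (adjusted p = 8.66e-18), which ranked 41st by p among all genes.

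Gpnmb is a transmembrane glycoprotein of phagosomes and melanosomes, under the control of Mitf in several cell types. Its vehicle values on Day 1 were 2.44, 1.75, 0.931 and 2.27 CPM, and its FGF1 values ran from 2.15 through 3.46 to 6.52 CPM. All but 1 FGF1 mouse lay above the vehicle range, and the highest value, that of the shallow library, rests on only 8 counts. For Gpnmb the log2 FC was 0.95 ± 0.27 (adjusted p = 0.00344). With quantile normalization in limma it did not pass (0.84, adjusted p = 0.254), nor with limma's sample quality weights (0.82, adjusted p = 0.0543).

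Both surface receptors rose on Day 1. Axl, a receptor tyrosine kinase of the TAM family that recognises dying cells through Gas6 or protein S, measured 64.5, 58.6, 62.0 and 67.9 CPM in vehicle mice. The FGF1 values ran from 78.2 through 105 to 127 CPM, a modest shift with no overlap. The log2 FC was 0.75 ± 0.07 (adjusted p = 1.28e-11). Cd14 (GRCm38 chr18:36725067-36726798, minus strand), the co-receptor that hands bacterial lipopolysaccharide to Toll-like receptor 4, measured 0.604, 1.16, 1.12 and 1.15 CPM in vehicle mice. Its FGF1 values ran from 2.498 through 4.06 to 5.70 CPM. Cd14 thus had a low level in all mice (22 to 48 counts in the vehicle libraries) with a clear separation of the groups, and the log2 FC was 1.92 ± 0.21 (adjusted p = 3.16e-10).

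The membrane proteins of late endosomes and lysosomes both rose on Day 1. Cd68, a scavenger receptor-like glycoprotein used as a stain for phagocytic microglia, measured 6.24, 5.76, 5.93 and 6.51 CPM in vehicle mice and from 7.33 through 15.0 to 19.4 CPM after FGF1. The lowest FGF1 value was that of the shallow library, with 9 counts, and the other 9 mice had at least 13.5 CPM. This gave a log2 FC of 1.34 ± 0.16 (adjusted p = 2.52e-09). Cd63, a tetraspanin of late endosomes and exosomes, measured 74.7, 83.7, 66.7 and 66.8 CPM in vehicle mice. After FGF1 it ran from 148 through 191 to 231 CPM, so that the lowest FGF1 mouse had more than the highest vehicle mouse by a wide margin. Its log2 FC was 1.41 ± 0.10 (adjusted p = 3.37e-16).

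The 3 lysosomal proteases had the smallest log2 FC of the 10 genes on Day 1. Ctss, a cathepsin found mainly in microglia and antigen-presenting cells, measured 62.8, 59.4, 60.1 and 63.6 CPM in vehicle mice and from 63.3 through 90.2 to 108 CPM after FGF1. Of the 10 FGF1 mice 1, replicate 7, fell into the vehicle range, and the other 9 lay above it. The log2 FC was 0.54 ± 0.15 (adjusted p = 0.00213), just above the fold threshold, and it came to 0.50 with DESeq2 size factors and 0.49 with DESeq2, both under it. Ctsb, a cysteine protease of most cells, measured 872, 861, 841 and 904 CPM in vehicle mice and from 799 through 1055 to 1196 CPM after FGF1. The shallow library lay below all vehicle mice and the other 9 above all of them, with a log2 FC of 0.27 ± 0.05 (adjusted p = 7.48e-05), under the fold threshold. Ctsd, the aspartic protease that processes other lysosomal enzymes, measured 172, 97.03, 128 and 166 CPM in vehicle mice and from 124 through 168 to 210 CPM after FGF1. These ranges overlapped widely, and the log2 FC was 0.28 ± 0.12 (adjusted p = 0.0528). Over the 10 genes, exact two-sided permutation tests of log2(CPM + 0.5) gave the smallest p this design allows (0.002, 10 against 4 mice) for the 6 genes without overlap. Without the shallow library the same count of 8 passed.

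**Figure D2:**
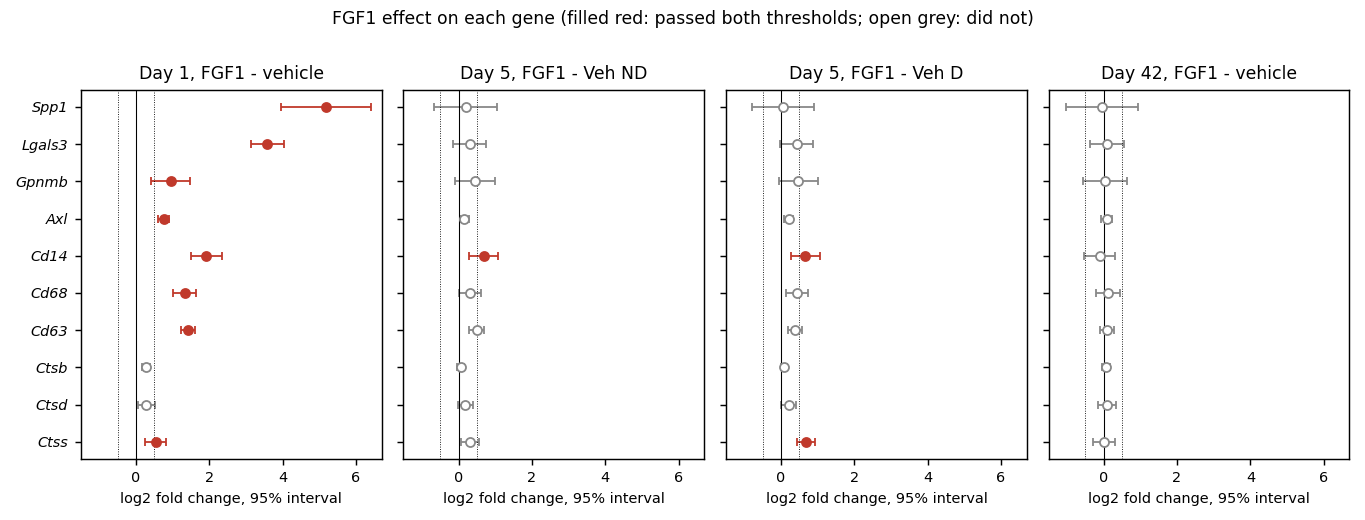
Log2 FC of each gene, FGF1 against vehicle, with an approximate 95% interval, on Day 1, on Day 5 against each vehicle group and on Day 42. The intervals are a normal approximation with an SE derived from the edgeR F value. Filled red points passed both thresholds, and dotted lines mark a log2 FC of 0.5 in either direction. On Day 1 8 genes passed, on Day 5 Cd14 against both vehicle groups and Ctss against the diabetic one, and on Day 42 none.

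Levels per length of exon were divided by the union of all annotated exons, which allows only a rough comparison between genes. That union, 3682 bases for Cd63, can be longer than the transcripts present, and how exons were counted is not known. The order is therefore uncertain. By this measure the vehicle mice of Day 1 had most Ctsb (144 ± 4.31 CPM per kb, SD, n = 4), then Ctsd (59.9 ± 14.9), Ctss (45.2 ± 1.495), Cd63 (19.8 ± 2.19), Spp1 (15.4 ± 3.52) and Axl (12.6 ± 0.777). Cd68 (4.86 ± 0.264), Lgals3 (1.15 ± 0.267), Cd14 (0.581 ± 0.155) and Gpnmb (0.284 ± 0.104) followed. Neighbours whose mice overlapped were Ctsd and Ctss, Cd63 and Spp1, Spp1 and Axl, and Cd14 and Gpnmb. The order of the FGF1 mice of Day 1 differed at its top: Spp1 came first with 554 ± 404 CPM per kb (n = 10), above Ctsb with 173 ± 18.1, although the mice overlapped (67.7 to 1191 against 132 to 198 CPM per kb). Lgals3 (13.7 ± 3.52) stood above Cd68 (11.9 ± 2.71), with overlap between mice.

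**Figure D3:**
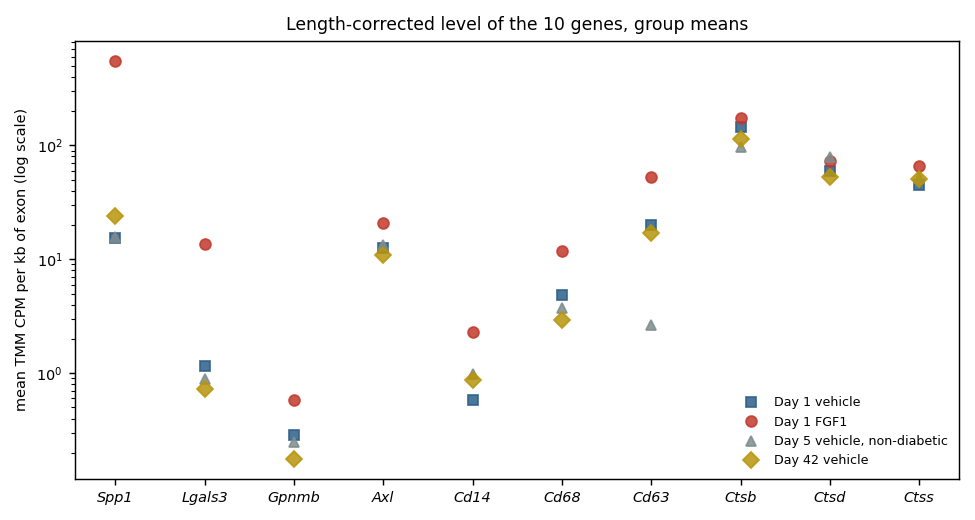
Mean TMM-normalized CPM per kilobase of exon (log axis) of the 10 genes in 4 groups: vehicle and FGF1 on Day 1, vehicle labelled non-diabetic on Day 5 and vehicle on Day 42. Spp1 moves from 15.4 CPM per kb in vehicle mice to 554 after FGF1 on Day 1, and Cd63 is far lower on Day 5 than on Days 1 and 42.

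The FGF1 mice of Day 1 with most Spp1 also had most of several other cell type markers. The 3 highest (1963, 1833 and 1468 CPM) had summed meningeal fibroblast markers of 410, 303 and 432 CPM and border macrophage markers of 61.4, 58.5 and 61.5 CPM. The 3 lowest (112, 248 and 291 CPM) had 60.3, 106 and 210 CPM of the former and 35.0, 30.4 and 28.0 CPM of the latter. Monocyte markers were 309, 330 and 369 CPM in the 3 highest and 111, 118 and 188 CPM in the 3 lowest. Endothelial markers were 251, 241 and 240 CPM in the 3 highest and 210, 214 and 196 CPM in the 3 lowest. Homeostatic microglia markers were 467, 439 and 521 CPM in the 3 highest and 405, 442 and 510 CPM in the 3 lowest, ranges that overlapped. Among all genes, those closest to Spp1 over the 47 libraries, after each group's mean was subtracted from log2(CPM + 0.5), were the matrix genes Bgn (Pearson r = 0.878), Dcn (0.841) and Fn1 (0.839), with r of 0.838, 0.789 and 0.814 without the shallow library. Such a correlation also carries what libraries share in depth and dissection.

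**Figure D4:**
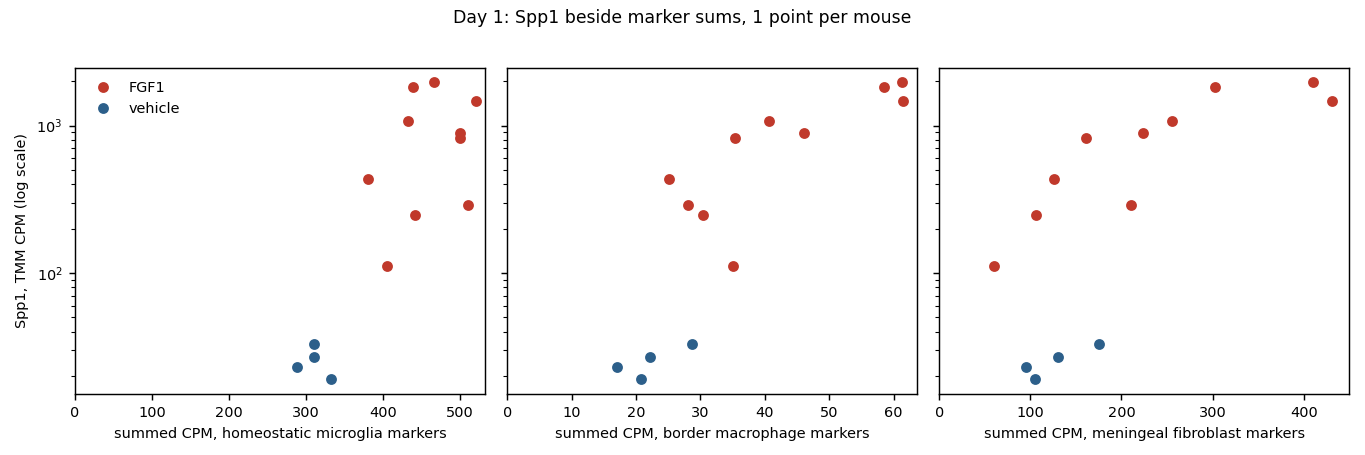
Spp1 in each mouse of Day 1 (TMM-normalized CPM, log axis) against the summed CPM of homeostatic microglia, border macrophage and meningeal fibroblast markers (red FGF1, blue vehicle). The 3 FGF1 mice with most Spp1, 1468 to 1963 CPM, have border macrophage sums of 58.5 to 61.5 CPM, while their microglia sums, 439 to 521 CPM, overlap with those of the other FGF1 mice.

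The other members were close to other genes. Ctss was nearest to B2m (r = 0.862), Mpeg1 (0.786) and C3 (0.777), genes of antigen presentation and innate defence, and Axl to Pear1 (0.774), Col3a1 (0.759) and Ifitm3 (0.736). Cd63 was nearest to Slc39a1 (0.668), its fellow tetraspanin Cd9 (0.660) and Gipr (0.642). Ctsd was nearest to Slc22a17 (0.963), Gnb2 (0.961) and Tkt (0.958), and Ctsb to Ccl9 (0.837), Star (0.830) and Tnfaip2 (0.818). Weaker likeness was found for Cd68 with S1pr2 (0.747), Fem1a (0.707) and Neurl1a (0.693), Cd14 with Dnah17 (0.556), Fbn1 (0.543) and Itpr2 (0.529), Gpnmb with Anxa4 (0.539), Syndig1 (0.520) and BC052040 (0.519), and Lgals3 with Steap3 (0.539), Lrp4 (0.537) and Acot1 (0.530). Without the shallow library Ccl9 (r = 0.607), Fem1a (0.548), Syndig1 (0.447), BC052040 (0.454), Dnah17 (0.511) and Itpr2 (0.462) ranked only 17th to 58th among the genes close to their member. Among the 45 pairs of members the median r was 0.129 (from -0.287 to 0.729), with 33 above 0, so within a group mice high in 1 member were not in general high in the others.

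Markers of cells that could carry these genes moved on Day 1 as well, and their part in the members' values was not tested. Of 15 homeostatic microglia markers 11 rose, led by Fcrls (log2 FC 1.83) and Olfml3 (1.43), and P2ry12 fell by 0.66. Their sums were 381 to 521 CPM after FGF1 and 288 to 332 CPM in vehicle mice, without overlap. Of 9 border macrophage markers 5 were in the table and 4 rose (sums 25.2 to 61.5 against 17.0 to 28.7 CPM). Of 8 monocyte markers 3 were in the table, Ccr2, Fn1 and Vcan. Of these Ccr2 (1.69) and Fn1 (1.55) rose, and Fn1 is also made by fibroblasts and vessels (sums 111 to 369 against 81.2 to 113 CPM). Ccr2 can be a small part of such sums: in the FGF1 mice of Day 5 it averaged 2.56 CPM, Vcan 80.3 and Fn1 40.9 CPM. None of 9 neutrophil markers had a row, so neutrophils were not analysed here.

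Among the other lists on Day 1, meningeal fibroblast markers split (3 of 7 higher, 2 lower, sums 60.3 to 432 against 95.1 to 175 CPM) and so did astrocyte markers (2 of 8 higher, 1 lower, 4888 to 5849 against 4385 to 5002 CPM). Oligodendrocyte markers fell (6 of 7 lower, 2265 to 4168 against 3632 to 5317 CPM). Choroid plexus markers had 1 of 4 lower, with sums that did not overlap (22.7 to 39.9 against 45.3 to 57.0 CPM). Hypothalamic neuron markers had 2 of 10 higher and 2 lower (738 to 1202 against 1104 to 1608 CPM) and tanycyte markers 1 of 7 higher and 2 lower (88.8 to 159 against 138 to 208 CPM). Endothelial markers had 2 of 6 higher (187 to 251 against 161 to 238 CPM) and pituitary markers 0 of 2 called, although Cga and Tshb are defining pituitary genes and their sum was 1.12 to 19.5 CPM after FGF1.

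Genes that act with the members were followed by role on Day 1. The integrins and CD44 that bind osteopontin had 4 of 9 higher and none lower (median log2 FC 0.47), with Itga5 at 4.29 ± 0.25 (61.7 against 3.205 CPM, adjusted p = 9.3e-19), Cd44 at 2.88 ± 0.15 and Itgb1, the most abundant, at 0.83 ± 0.11. Of Axl's kin and ligands, Pros1, which encodes protein S, rose by 1.49 ± 0.15, and Mertk, Tyro3 and Gas6 did not pass (Gas6 -0.27, adjusted p = 0.0726). Of 9 measured partners of Cd14, 6 rose and none fell (median 0.92), among them its receptor Tlr4 (1.66 ± 0.21) and the adaptor Myd88 (1.55 ± 0.14), while Irak1 was at -0.04. Of 5 other galectins 3 rose and 1 fell (median 0.81), led by Lgals1 (3.36 ± 0.27) and Lgals3bp (1.01 ± 0.16). Of 9 other tetraspanins 5 rose and none fell (median 0.54), led by Cd9 (2.02 ± 0.09) and Tspan4 (1.57 ± 0.16).

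The proteolytic and lysosomal lists followed. Of 9 other cathepsins 4 rose, led by Ctsc (1.98 ± 0.18) and Ctsh (0.90 ± 0.15), 2 fell, and the abundant Ctsl was at 0.14 (adjusted p = 0.0512). Of 3 cathepsin inhibitors Cstb rose (0.73 ± 0.13), and the abundant Cst3 was at -0.50 (adjusted p = 3.86e-05), just inside the fold threshold. Only 1 of 23 other lysosomal proteins passed, the acid lipase Lipa (0.58 ± 0.08), and the median of the 23 was 0.07, with Psap at -0.13. The factors that drive lysosomal and Gpnmb transcription rose in 2 of 3 cases, Tfeb (1.26 ± 0.23) and Mitf (0.58 ± 0.15), with Tfe3 at 0.22. Of 11 Fc, complement and scavenger receptors 8 rose and 2 fell (median 0.96), led by Fcgr2b (3.39 ± 0.21) and Fcgr1 (1.45 ± 0.21). Of 12 other genes known from disease-associated microglia, which are phagocytic microglia of neurodegeneration, 4 rose and none fell (median 0.09), led by Ccl6 (2.31 ± 0.32) and Plin2 (0.92 ± 0.17), with Apoe at -0.42.

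On Day 5 few members differed from the vehicle mice labelled non-diabetic. Cd14 was the 1 member that rose (1.61-fold), beside 1.54% DEGs of all genes tested and 1.31% in the upward direction. All 10 log2 FC were above 0, from 0.06 to 0.68 with a median of 0.30 (all genes -0.01). Against the vehicle mice labelled diabetic Cd14 (1.58-fold) and Ctss (1.60-fold) rose, beside 2.85% of all genes and 2.36% upward, with a median of 0.40 (0.05 to 0.68, all genes -0.01). Both comparisons share their 9 FGF1 mice.

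Cd14 ran from 2.10 through 2.70 to 3.73 CPM in the FGF1 mice of Day 5. The non-diabetic vehicle mice ran from 1.31 through 1.75 to 2.25 CPM and the diabetic ones from 1.35 through 1.59 to 2.49 CPM. Of the 9 FGF1 mice 8 lay above all non-diabetic and 6 above all diabetic vehicle mice, at a level of 11 to 24 counts in the vehicle libraries. The log2 FC were 0.68 ± 0.20 (adjusted p = 0.0352) and 0.66 ± 0.20 (adjusted p = 0.0232). The first was at the edge of the threshold: without non-diabetic vehicle replicate 1 it was 0.65 (adjusted p = 0.0694), and no member passed.

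Ctss ran from 72.0 through 84.4 to 107 CPM after FGF1 and from 51.3 through 55.0 to 58.2 CPM in the diabetic vehicle mice, without overlap (log2 FC 0.68 ± 0.13, adjusted p = 0.000184). Non-diabetic vehicle mice ran from 55.4 through 58.6 to 147 CPM, and 1 mouse, replicate 2, exceeded every FGF1 mouse. With it the log2 FC was 0.32 ± 0.12 (adjusted p = 0.155). Without it the value was 0.60 (adjusted p = 2.55e-07), and Ctss, Cd14 and Cd63 all passed against that group. The 2 vehicle groups merged to 14 mice, as in the deposited sample table, gave 0.49 (adjusted p = 0.00178), under the fold threshold.

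**Figure D5:**
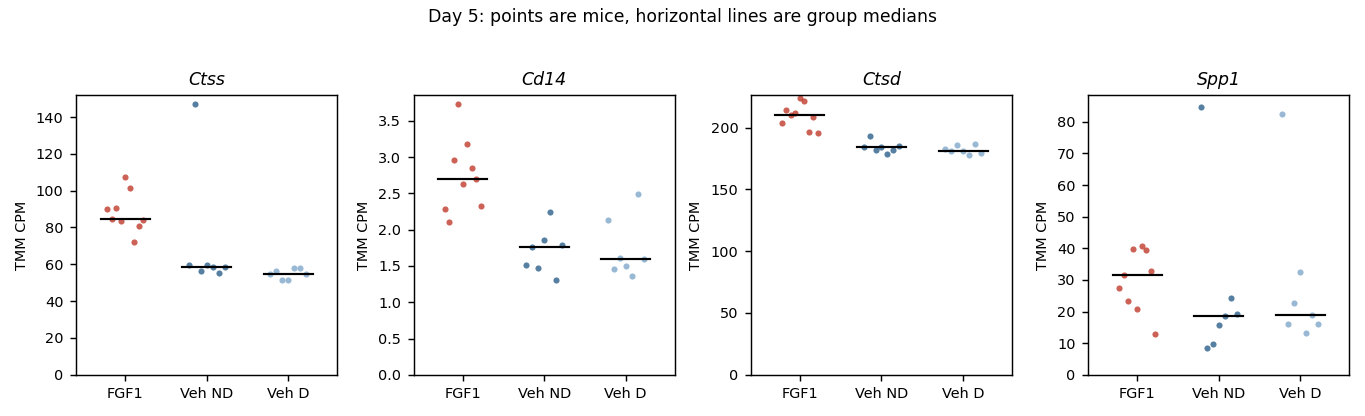
Ctss, Cd14, Ctsd and Spp1 on Day 5 in each mouse (TMM-normalized CPM, linear axes from 0, horizontal lines group medians), for FGF1 and both vehicle groups. Ctsd separates FGF1 (196 to 224 CPM) from both vehicle groups (178 to 193 CPM) by a small step, while single vehicle mice stand far above their groups for Ctss (147 CPM) and Spp1 (84.6 and 82.5 CPM).

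Ctsd showed a small shift without overlap on Day 5. The FGF1 mice ran from 196 through 210 to 224 CPM, the non-diabetic vehicle mice from 178 through 184 to 193 CPM and the diabetic ones from 178 through 181 to 186 CPM. All 9 FGF1 mice lay above all 14 vehicle mice (against the first group 1 member of 10 and 2.38% of all genes did so, against the second Ctsd and Ctss and 3.63%). The exact permutation p was 0.000175 in both, the smallest that 9 against 7 mice allow. The fit over all days, whose spread for Ctsd includes coefficients of variation of 15.3% to 25.8% on Days 1 and 42, gave log2 FC of 0.19 ± 0.10 (adjusted p = 0.370) and 0.20 ± 0.10 (adjusted p = 0.238). With the Day 5 libraries alone the adjusted p was 1.72e-05 and 3.22e-06, with log2 FC of 0.19 and 0.21, still under the fold threshold.

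Cd63 ran from 8.64 through 13.9 to 16.7 CPM after FGF1, from 8.46 through 9.86 to 10.6 CPM in non-diabetic and from 8.62 through 10.2 to 12.2 CPM in diabetic vehicle mice. The FGF1 mice were higher with overlap, and the log2 FC of 0.49 ± 0.10 (adjusted p = 0.00083) and 0.38 ± 0.10 (adjusted p = 0.00725) lay under the fold threshold. The first passed it without non-diabetic vehicle replicate 2 (0.52), without the 2 deepest FGF1 libraries (0.51, adjusted p = 0.0018) and with at least 10 counts required in every library (0.51, adjusted p = 0.000534). In the vehicle mice labelled non-diabetic Cd63 itself averaged 73.0, 9.65 and 63.0 CPM on Days 1, 5 and 42, a 7.56-fold span, against 1.15- to 1.69-fold for the other 9 members. In the diabetic vehicle mice of Day 5 it averaged 10.4 CPM. The cause was not tested, and day and preparation cannot be told apart.

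Spp1 and Lgals3, which rose most on Day 1, did not pass on Day 5. Spp1 ran from 13.01 through 31.5 to 40.8 CPM after FGF1, from 8.56 through 18.7 to 84.6 CPM in non-diabetic and from 13.4 through 18.8 to 82.5 CPM in diabetic vehicle mice (log2 FC 0.19 ± 0.44, adjusted p = 0.913, and 0.05 ± 0.43, adjusted p = 0.977). The 95% intervals, -0.67 to 1.05 and -0.80 to 0.89, do not exclude a change of nearly 1 log2 unit. Without the high vehicle mouse of each group the log2 FC were 0.89 (adjusted p = 0.31) and 0.58, also not called. Lgals3 ran from 1.32 through 1.87 to 3.47 CPM after FGF1 and from 0.944 through 1.62 to 2.57 CPM in non-diabetic vehicle mice, with wide overlap (log2 FC 0.30 ± 0.23, adjusted p = 0.591). In diabetic vehicle mice it ran from 0.796 through 1.53 to 2.24 CPM (log2 FC 0.42 ± 0.23, edgeR adjusted p = 0.290).

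The remaining 4 members did not pass on Day 5. Cd68 ran from 4.23 through 5.82 to 7.03 CPM after FGF1, from 3.42 through 4.23 to 6.55 CPM in non-diabetic and from 3.57 through 4.13 to 5.04 CPM in diabetic vehicle mice, with log2 FC of 0.31 (adjusted p = 0.304) and 0.43 (adjusted p = 0.0654). Axl ran from 62.0 through 74.1 to 89.2, from 61.0 through 67.9 to 71.0 and from 60.8 through 65.1 to 66.8 CPM, with log2 FC of 0.15 (adjusted p = 0.173) and 0.21 (adjusted p = 0.0262, under the fold threshold). Gpnmb had log2 FC of 0.46 (adjusted p = 0.439) and 0.47 (adjusted p = 0.328) with 8 to 27 counts in the vehicle libraries, and Ctsb, at 557 to 644 CPM in all 23 mice, 0.06 (adjusted p = 0.592) and 0.07 (adjusted p = 0.366).

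Microglial markers were again higher beside the members on Day 5. Their sum was 453 to 547 CPM after FGF1, 336 to 557 CPM in non-diabetic vehicle mice, where replicate 2 set the upper end, and 321 to 358 CPM in diabetic ones. Fcrls (1.24), Olfml3 (0.99) and C1qb (0.61) rose against the first group, and 10 of 15 markers against the second. Border macrophage markers summed to 35.6 to 57.4, 25.7 to 37.9 and 26.9 to 36.5 CPM, with Stab1 alone called against the first. Against the second Mrc1 (0.85) and Stab1 (0.59) were called. Some markers of other cells were higher on Day 5 as well. Meningeal fibroblast markers (sums 91.9 to 323, 53.4 to 164 and 65.0 to 166 CPM) had 3 of 7 higher against the first group, with a median log2 FC of 0.87, and 1 of 7 against the second (0.69). Oligodendrocyte markers (6227 to 7098, 4562 to 6025 and 4134 to 6172 CPM) had 3 of 7 higher against each, with medians of 0.36 and 0.49. Of 8 astrocyte markers Gfap alone rose against each (1.29 and 1.28), and their sums were 5087 to 5598, 4583 to 4779 and 4445 to 4924 CPM. Of the tanycyte markers Dio2 fell against the second group (-0.57, adjusted p = 0.0444), and no monocyte, endothelial, choroid plexus, hypothalamic neuron or pituitary marker was called against either. The part of these cells in the values of Cd14 and Ctss was not tested. Among the role lists 1 gene each rose against the non-diabetic vehicle mice for osteopontin binders (Cd44, 0.64), Cd14 partners (Tlr4, 0.57), tetraspanins (Cd9, 0.73), galectins (Lgals1, 0.75) and cathepsin inhibitors (Cst3, 0.53), and 2 of the Fc, complement and scavenger receptors (Fcgr2b, 1.19, and Stab1, 0.53). Against that group none rose among 9 other cathepsins, 23 other lysosomal proteins, 4 TAM genes besides Axl, 3 transcription factors and 12 other disease-associated microglia genes. Against the diabetic vehicle mice more list genes rose: 2 other cathepsins (Ctsc, 0.62, and Ctsh, 0.60), 1 TAM gene (Pros1, 0.56), 1 disease-associated microglia gene (Tyrobp, 0.61), 2 osteopontin binders (Itgb5, 0.60, and Cd44, 0.64), 3 tetraspanins led by Cd9 (0.71) and 4 Fc, complement and scavenger receptors led by Fcgr2b (1.32). Galectins, Cd14 partners and cathepsin inhibitors had 1 higher gene each there too, and lysosomal proteins and transcription factors none.

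No member passed the test between the vehicle groups of Day 5. By edgeR none of the 10, and 0.0% of all genes, passed between mice labelled diabetic and non-diabetic, with 1 member, Ctss, and 193 genes at an unadjusted p under 0.05 and 0 members passing with DESeq2. Ctss had a log2 FC of -0.36 ± 0.13 (adjusted p = 0.9999), and -0.08 without non-diabetic vehicle replicate 2. With 7 mice a group the 95% interval of this difference for Spp1 was -0.77 to 1.06.

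By Day 42 no member passed the test between FGF1 and vehicle. By edgeR 0 of 10 members and 0.0% of all genes passed, with 0 members and 776 genes at an unadjusted p under 0.05 and 0 members passing with DESeq2, and the median log2 FC was 0.07 (-0.10 to 0.11, all genes -0.01). No member was without overlap between the groups, as against 0.0914% of all genes. The share over all genes depends on single libraries: without FGF1 replicate 1 of Day 42, 31 genes passed, and no member.

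Spp1 measured 40.9, 36.9, 44.1, 41.1 and 27.0 CPM in the FGF1 mice of Day 42 and 42.2, 38.6, 37.5, 41.5 and 36.8 CPM in the vehicle mice. These values were interleaved, and the log2 FC was -0.04 (95% interval -1.02 to 0.94). Lgals3 measured 1.15, 1.38, 1.26, 1.37 and 2.11 CPM after FGF1 and 1.03, 1.51, 1.28, 0.949 and 1.92 CPM after vehicle, with a log2 FC of 0.09 (-0.38 to 0.56). Both were back among the vehicle values, within intervals far below their Day 1 changes. Cd14 measured 1.66, 1.77, 1.58, 1.37 and 0.555 CPM against 1.34, 1.68, 1.55, 1.62 and 1.41 CPM, and its log2 FC was -0.10 (-0.52 to 0.32). Axl measured 59.8, 59.2, 57.5, 57.9 and 55.0 CPM against 54.0, 55.9, 52.7, 55.7 and 55.5 CPM. Of the 5 FGF1 mice 4 lay above all vehicle mice for Axl, with an unadjusted exact permutation p of 0.0317 that was the only one under 0.05 of the 10 genes, and the edgeR log2 FC was 0.08 (adjusted p = 1). The remaining 6 genes had log2 FC of 0.0043 (Ctss) to 0.11 (Cd68), and their groups overlapped.

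To ask whether the FGF1 effect differed between days, its log2 FC on one day was subtracted from that on another, with the Day 5 effect taken against the non-diabetic vehicle mice. It was smaller on Day 5 than on Day 1 for 6 of the 10 members, and for none larger, beside 15.8% of all genes called in this comparison and 8.52% in the downward direction. The same count of 6 was smaller on Day 42 than on Day 1, beside 16.4% and 9.81%. Both comparisons share the Day 1 libraries, and day and preparation cannot be told apart in them. The vehicle level of Cd63 was also far lower on Day 5 than on Days 1 and 42. The genes were Spp1, Lgals3, Cd14, Cd68, Cd63 and Axl in each case, and these 6 were also smaller on Day 5 than on Day 1 with the effect taken against the diabetic vehicle mice (an alternative chosen after seeing the data). With quantile normalization in limma Cd14 did not pass between Days 1 and 5 (-0.63, adjusted p = 0.159). Spp1 differed by -4.98 ± 0.71 (adjusted p = 3.73e-07) and -5.22 ± 0.75 (6.38e-07), and Lgals3 by -3.29 ± 0.32 (2.31e-11) and -3.50 ± 0.32 (4.07e-12).

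The 3 cathepsins and Gpnmb did not pass in these comparisons. Ctss, which was 1.46-fold higher on Day 1 and 1.245- and 1.60-fold higher on Day 5 against the 2 vehicle groups, differed by -0.23 ± 0.19 between Days 5 and 1 (adjusted p = 0.401, and 0.13 with the diabetic vehicle mice, adjusted p = 0.631), and Gpnmb by -0.49 ± 0.38 (adjusted p = 0.370). These intervals, -0.60 to 0.14 for Ctss and -1.24 to 0.27 for Gpnmb, include 0 and leave a smaller, an equal and a larger effect on Day 5. From Day 1 to Day 42 Ctss differed by -0.54 ± 0.21 (adjusted p = 0.0510) and Gpnmb by -0.91 ± 0.40 (adjusted p = 0.0943). Ctss passed without FGF1 replicate 1 of Day 1, the shallow library (-0.55, adjusted p = 0.0473), or without vehicle replicate 5 of Day 42 (-0.56, adjusted p = 0.0479), and Gpnmb without FGF1 replicate 5 of Day 42 (-1.18, adjusted p = 0.0248). From Day 5 to Day 42 no member's effect passed, beside 0.717% of all genes (2 members, Cd63 and Cd14, and 1419 genes at an unadjusted p under 0.05, and 0 members with DESeq2). Cd63 differed by -0.41 ± 0.14 (adjusted p = 0.179) and Cd14 by -0.79 ± 0.29 (adjusted p = 0.264). Without non-diabetic vehicle replicate 2 of Day 5 the effect on Ctss was smaller on Day 42 (-0.60, adjusted p = 0.00244).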

How the data were processed

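Bulk RNA-seq libraries of hypothalamus from 47 mice were analysed, 1 library per mouse, grouped by the treatment labels. Single-cell and single-nucleus data were not analysed here. The authors aligned reads with STAR and deposited raw counts per gene as whole numbers. The submitters' processing notes also name DESeq2 and a build written GRCh38, a human build, for these mouse data, and the counting program is not given in the sources used here. The 14221 genes had at least 307 counts each over all libraries, so the table may have been filtered. Every sample column was used.

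The 10 members and all gene lists were chosen with earlier results of these data known. Counts were scaled by TMM and fitted with 7 group means in edgeR 4.0.16 (R 4.3.3), with quasi-likelihood F tests and Benjamini-Hochberg adjustment over all genes. The SE of a log2 FC was derived from its F value, and the 95% intervals are a normal approximation. An interval can therefore just exclude no change where the unadjusted p of the F test is slightly above 0.05. A DEG needed an adjusted p under 0.05 and an absolute log2 FC above 0.5. Counts per mouse were also compared by exact two-sided permutation tests on log2(CPM + 0.5) in scipy 1.17.1. Named genes were all 10 members, the 2 strongest DEGs of each list on Day 1 and on Day 5 against the non-diabetic vehicle mice, the most abundant gene of each list, and the 3 genes most correlated with each member. Other list genes named in the text were chosen after their values were seen.

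The numbers of replicates are names only. No library was a duplicate of another by chi-square over genes (at least 1.66 per degree of freedom). On simulated counts with 200 genes changed by a log2 FC of 1.5, 99.5%, 99.5% and 99% were recovered for Day 1, Day 5 (non-diabetic) and Day 42. That change was larger than the members' log2 FC on Day 5, which were at most 0.68. Recovery of such smaller changes was not tested, and false calls are not reported here. Positions and exon lengths came from GENCODE for GRCm38, in which 14180 symbols were found, and windows before start sites from RefSeq for GRCm38.p6. Alternatives were DESeq2 1.42.0, its size factors, quantile normalization and quality weights in limma 3.58.1, other filters, each day alone, merged vehicle groups, other pseudocounts and leaving libraries out.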

Additional observations from a re-analysis of the deposited data

Results flagged for a closer look

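Dixon's test at the 95% level, run on log2(CPM + 0.5), flags a value by chance in about 1 of 20 sets. Of 70 sets of mice (10 genes in 7 groups), 7 held 1 value that it placed far from the rest. Both low values of the shallow Day 1 FGF1 library, replicate 1, were among them, with 7.33 CPM of Cd68 and 799 CPM of Ctsb. Ctss was high in non-diabetic vehicle replicate 2 of Day 5 (147 CPM) and in vehicle replicate 3 of Day 42 (80.2 CPM). Lgals3 was high in vehicle replicate 2 of Day 1 (2.88 CPM). Cd14 was low in vehicle replicate 1 of Day 1 (0.604 CPM, 22 counts) and in FGF1 replicate 5 of Day 42 (0.555 CPM, 10 counts). On the log scale used, the high Spp1 values of replicate 1 in both vehicle groups of Day 5 were not flagged.

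The FGF1 effect differed between days for 6 genes, by the edgeR test of the difference. From Day 1 to Day 5 the log2 FC changed by -4.98 for Spp1, -3.29 for Lgals3, -1.24 for Cd14, -1.03 for Cd68, -0.92 for Cd63 and -0.60 for Axl (adjusted p from 2.31e-11 to 0.000877). From Day 1 to Day 42 it changed by -5.22, -3.50, -2.03, -1.23, -1.33 and -0.67 for the same genes in that order (adjusted p from 4.07e-12 to 6.32e-05). Both sets share the Day 1 libraries, and each day was prepared apart.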

How the results depend on the processing

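No paired analysis was possible because the replicate numbers only name mice and join none across groups. Requiring 10 counts in every library kept 6 members and 10973 genes, and left 4 of 8 members called on Day 1, 1 of 2 on Day 5 against diabetic vehicle mice, and 3 of 6 for the change from Day 1 to Day 5 and to Day 42. The called members that were lost (from Cd14, Cd68, Gpnmb and Lgals3) had been removed by this filter and were not tested. Against non-diabetic vehicle mice on Day 5 (1 called), no threshold on the fold change gave 2, limma's quality weights gave 2, and leaving out 1 vehicle library gave 0 (replicate 1) to 3 (replicate 2). Against diabetic ones (2 called), no fold threshold gave 4, quality weights 3 (with Gpnmb, 0.55, adjusted p = 0.0486) and merging the vehicle groups 1. From Day 1 to Day 5 (6 called) quantile normalization with limma gave 5, and from Day 1 to Day 42 (6 called) leaving out a library gave 6 to 7. From Day 5 to Day 42 leaving out a library gave 0 to 1 called, the 1 being Ctss without non-diabetic vehicle replicate 2. Without the 2 deepest FGF1 libraries of Day 5, Cd14 missed the threshold (0.73, adjusted p = 0.05001) and Cd63 passed (0.51). These last leave-outs of Day 5 libraries were chosen after seeing the data. Quantile normalization with limma, in place of TMM with edgeR, moved the share of upward DEGs of all genes on Day 5 from 84.9% to 66.6% (non-diabetic) and from 82.5% to 65.6% (diabetic), and DESeq2 size factors that of Day 42 against Day 1 from 40.2% to 50.5%.

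Of the members' log2 FC under the alternatives, 1085 kept direction and side of the threshold, 10 newly passed, 8 no longer passed and 35 turned sign, all of these not called. Without single libraries the log2 FC on Day 42 ranged from -0.10 to 0.055 for Spp1, -0.014 to 0.30 for Cd68, -0.23 to 0.21 for Gpnmb, -0.054 to 0.26 for Lgals3, -0.019 to 0.064 for Ctss and -0.18 to 0.065 for Cd14. With quality weights it was -0.26 for Gpnmb, -0.012 for Ctss and 0.011 for Cd14. Between the vehicle groups it ranged from -0.39 to 0.85 for Spp1 and -0.036 to 0.027 for Cd14 without single libraries, and was -0.064 for Cd14 without replicate 1 of both. Gpnmb was at 0.39 with quantile normalization and 0.033 with quality weights, and Cd14 at -0.040 with the latter. From Day 1 to Day 5 Gpnmb was at 0.38 with quantile normalization, Ctsd ranged from -0.20 to 0.051 and Ctss from -0.27 to 0.058, with Ctss at 0.13 where the Day 5 effect was taken against the diabetic vehicle mice, also chosen after seeing the data. From Day 5 to Day 42 Ctsb ranged from -0.028 to 0.016 and Ctsd from -0.19 to 0.047, and Ctsb was at 0.013 with DESeq2 and with its size factors and at 0.0088 with quality weights, where Ctsd was at 0.031. Cd14, Gpnmb, Lgals3 and Cd68 had few counts (7 to 9 in their lowest libraries), which limits what their tests can show.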
